A study of Danio rerio with 2 samples.

Results

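Laminins, fibronectins, nidogens, perlecan, fibrillins, fibulins, tenascins, thrombospondins, SPARC proteins and vitronectins, together with the integrins that bind several of them, were compared between 2 pooled zebrafish RNA-seq libraries, 1 of whole embryos and 1 of adult livers. Members were chosen by gene name, from the name stems of these families, which took 56 of 27098 gene features. Of these, 51 are matrix proteins or integrin chains. The other 5 were taken by the start of their name, are neither integrin chains nor matrix proteins of these families, and are given last. The embryo and adult fish had been exposed for 48 h to tetracycline, paraquat, valproic acid, amiodarone, thioacetamide, chlorpromazine, acetaminophen, 17a-ethynylestradiol or cyclosporine A, 9 compounds toxic to the human liver. Equal amounts of RNA from all samples of a source were then combined, with 15 embryos in each embryo sample. The sources used here do not give the strain, the ages, the sex of the adults or whether RNA of unexposed fish was added, and no library of unexposed fish was analysed here. Every value is therefore that of a mixture of exposures, and tissue, developmental stage and exposure cannot be told apart.

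The extracellular matrix is a mesh of secreted proteins that surrounds cells and lies beneath epithelia, muscle fibres and vessels as the basement membrane. Laminins are trimers of an alpha, a beta and a gamma chain that polymerise in the basement membrane, where nidogens and the proteoglycan perlecan tie them to type IV collagen. Integrins are cell-surface receptors made of an alpha and a beta chain that bind laminins, fibronectin, vitronectin or collagens and couple them to actin. In mammals the liver secretes the plasma forms of fibronectin and vitronectin, while the sinusoids of the liver lack a continuous basement membrane.

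The embryo library held 11408727 reads assigned to genes and the liver library 13020149. Levels are given as total gene reads, which count reads with several positions too, and as CPM, the reads scaled to a common library size. The ratio of the pools carries an exact 95% interval in brackets, which covers counting error only, because each source had 1 library and no test between sources was possible. Calls required an interval wholly at or beyond 4-fold and at least 10 reads in the higher pool. Where a pool had 0 reads the fold is given as at least the value with 3 reads in their place, and the lower limit of its exact interval lies below that value. Over the 21750 genes with at least 10 reads in either pool, the log2 ratio of liver over embryo had a median of -1.60. Scaling with trimmed means (TMM) moved every ratio toward the liver pool by 1.35 on the log2 scale, and median-of-ratios size factors by 1.38. In a bulk library, fewer cells of a type and less RNA per cell cannot be told apart.

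Marker genes followed the labels of the pools. The 6 hepatocyte markers found summed to 75600 CPM in the liver pool against 3390 CPM in the embryo pool. In the liver pool the skeletal muscle markers were near 0, at 3.07 CPM against 37800 CPM in the embryo pool, as were those of notochord and cartilage (0.922 against 2740 CPM, with ntla at 0) and of neurons (3.23 against 1110 CPM, with elavl3 at 0). The epidermis markers had 69.3 CPM in the liver pool against 12900 in the embryo pool, and the stellate cell and fibroblast markers 50.1 and 4690. Endothelial markers had 82.6 CPM in the liver pool against 94.2 in the embryo pool, leukocyte markers 40.9 and 62.8, thrombocyte markers 8.83 and 6.84, cholangiocyte markers 1910 and 1360, and red cell markers 195 and 24.6. Within these sums krt8 and krt18 carried the cholangiocyte level, with anxa4 and sox9b lower in the liver pool, and the adult globins hbaa1 and ba1 were at 0 in the embryo pool while alas2 had more reads there. Among the endothelial markers kdrl had more reads in the liver pool, whereas fli1a, cdh5, tie1 and tie2 had fewer there and vwf differed little. The closeness of the endothelial sums therefore rested on kdrl. The part of cell make-up in the results was not tested.

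Most matrix and integrin genes were lower in the liver pool, and a few were far higher there. Of all 56 members 33 (58.9%) were called higher in the embryo pool against 4 (7.14%) in the liver pool, beside 30.9% and 3.35% of all measured genes. Among the 51 matrix and integrin genes these counts were 31 and 4, with 16 called in neither direction, and the median log2 ratio was -2.87. The 4 liver-enriched genes were the fibronectin gene fn1b, the vitronectin genes vtna and vtnb and the integrin beta 1 gene itgb1b.2. Each of the 51 reached 10 reads in the embryo pool, and 41 did so in the liver pool.

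The balance depended on how the libraries were scaled. Under TMM scaling 17 of the 51 were called higher in the embryo pool, beside 15.8% of all genes, and 5 in the liver pool, beside 8.06%. With size factors the counts were 14 beside 15.5% and 5 beside 8.19%. The fifth gene was the nidogen gene nid1a under either scaling. The ratios of 6 genes turned from below 1 to above 1 under TMM: itgb1a, itgb1b.1, itgb3b, itgb5, itga3a and thbs3a. Relative to the all-gene median, 36 of the 51 lay below and 15 above.

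**Figure D1:**
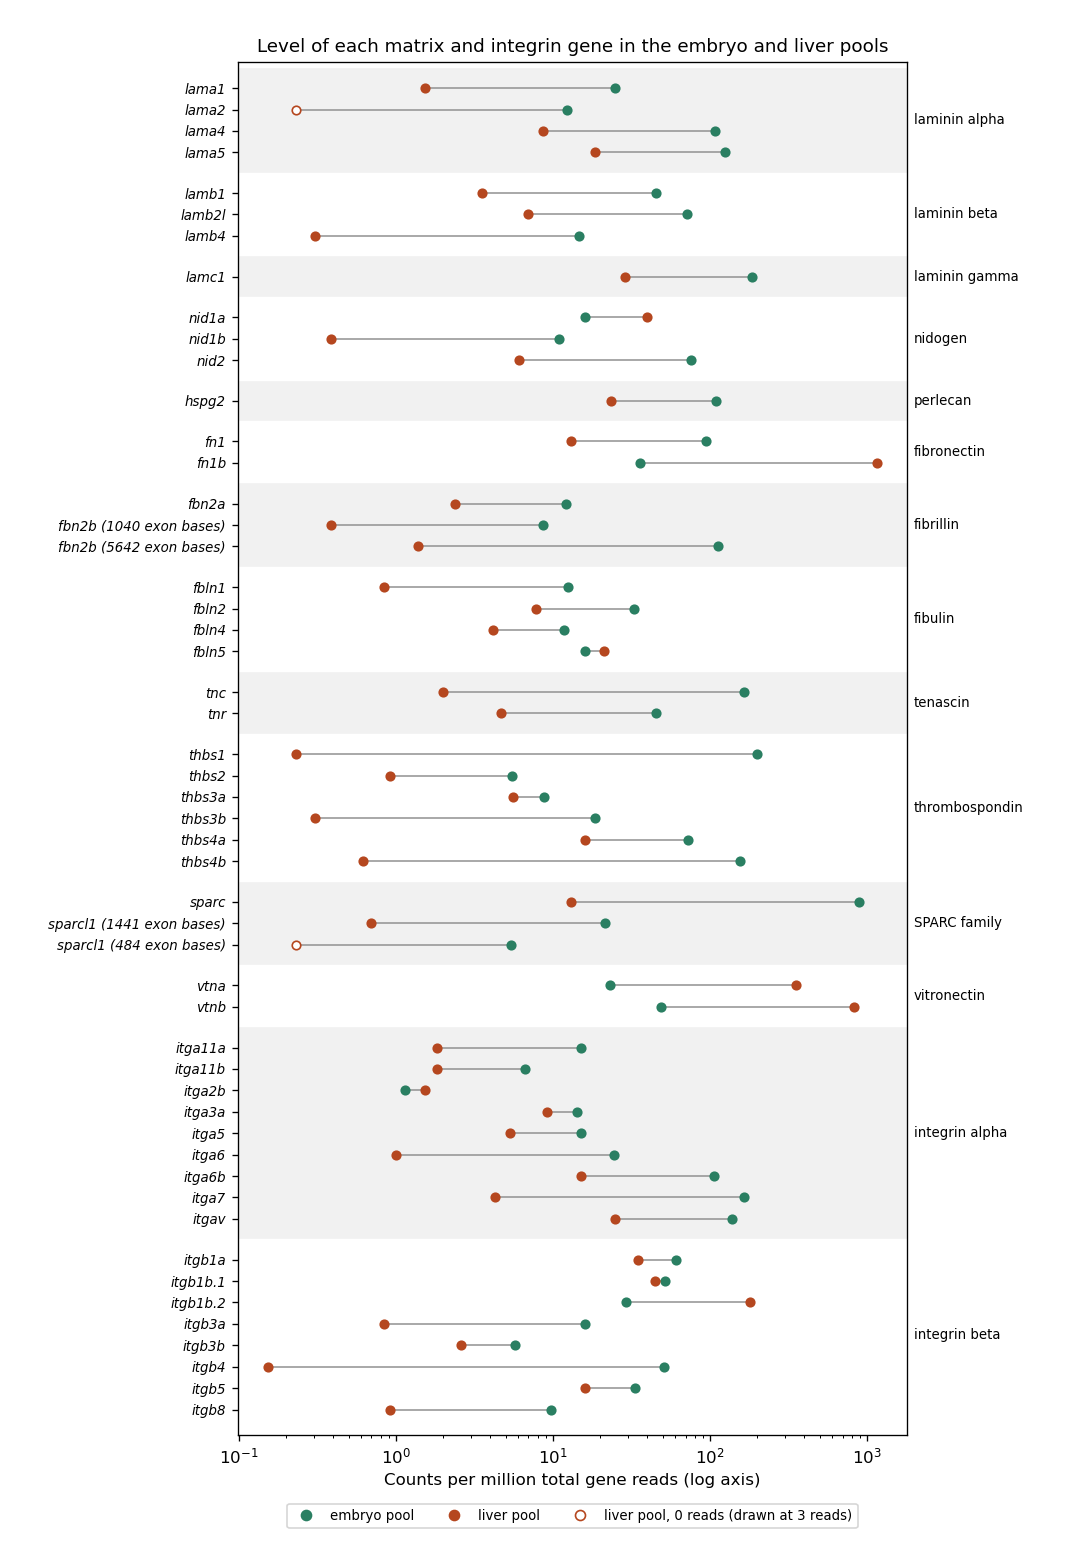
Level of each of the 51 matrix and integrin genes in CPM of total gene reads (log axis) in the embryo pool (green) and the liver pool (orange), with 1 library each, to be compared within a gene. The green point lies to the right for most genes, whereas fn1b at 1156 CPM and vtnb at 824.9 CPM in the liver pool lie far to the right of their embryo values of 35.8 and 48.9 CPM.

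The 51 genes together took a similar part of each library, but different genes filled it. They made up 0.354% of the embryo reads and 0.291% of the liver reads. In the liver pool fn1b, vtnb, vtna and itgb1b.2 held 86.3% of these reads. The other 47 genes, chosen here by not being called for the liver pool, had 38876 embryo reads and 5179 liver reads. In the embryo pool sparc alone held 25.1%. Per exon length the order of levels in the embryo pool was sparc with a deposited RPKM of 529.6, then thbs1 at 46.0, thbs4b at 44.7, itgav at 30.2 and lamc1 at 29.9. In the liver pool it was vtnb at an RPKM of 477.7, fn1b at 196, vtna at 189, itgb1b.2 at 76.6 and itgb1b.1 at 16.8. RPKM counts reads with several positions, and the rank of fn1b rested on them. Of its 14881 liver exon reads 3337 were unique, against all 4565 for vtna.

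Every laminin chain gene found was lower in the liver pool. All 8 were called higher in the embryo pool, beside 30.9% of all genes. The embryo pool had 6706 laminin reads against 885 in the liver pool. Among the alpha chains, which carry the main integrin-binding end of the trimer, lama5 had 1428 embryo reads and 240 liver reads, 6.79-fold higher in the embryo pool (5.92 to 7.82). The endothelial and muscle-associated chain lama4 had 1234 and 112 reads, 12.6-fold higher (10.4 to 15.4). The gene lama1, needed for the basement membrane around the zebrafish notochord, had 282 and 20 reads, 16.1-fold higher (10.2 to 26.8). Exons held 82 and 2 of these lama1 reads, for a 49.2-fold difference (13.2 to 413), and the lama1 region overlaps that of zgc:101668. The skeletal muscle chain lama2 had 141 embryo reads and none in the liver pool, at least 53.6-fold higher, with an exact lower limit of 43.05.

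The beta and gamma chains went the same way. The only gamma chain gene found, lamc1, known as sleepy in zebrafish, had 2116 embryo reads and 373 liver reads, 6.47-fold higher in the embryo pool (5.80 to 7.25). Its partner lamb1, known as grumpy, had 518 and 46 reads, 12.8-fold higher (9.50 to 17.8). The beta chain lamb2l had 820 and 90 reads, 10.4-fold higher (8.36 to 13.1), and lamb4 had 167 and 4 reads, 47.6-fold higher (18.3 to 177). From exon reads lamb2l was 17.6-fold higher (12.4 to 25.9), and its region overlaps that of LOC100332835. Thus the laminin genes shared a direction and ranged widely in size. Under TMM scaling 4 of the 8 calls held, those of lama1, lama2, lama4 and lamb4, beside 15.8% of all genes. With median-of-ratios size factors 2 held, those of lama2 and lamb4, beside 15.5%.

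Within the alpha chains the share of lama5 in total gene reads was larger in the liver pool. It was 46.3% (44.5 to 48.1) of alpha chain reads in the embryo pool against 64.5% (59.4 to 69.4) in the liver pool, while lama4 had 40.0% (38.3 to 41.8) and 30.1% (25.5 to 35.0). These shares do not depend on scaling between the libraries. With exon reads alone the shares of lama5 were 47.7% and 50.5%, and those of lama4 were 44.4% and 48.5%, so that the direction for lama4 turned. Scaled to exon length, lama4 held the largest share in both pools, at 42.7% and 63.2%, with lama5 at 24.7% and 35.4%. Only 42.5% of the liver reads of lama5 fell in annotated exons, against 89.6% of its embryo reads. From exon reads alone its liver to embryo ratio was 0.0664, in place of 0.147.

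The nidogens, which link laminin to type IV collagen, did not move together. The gene nid1a had 184 embryo reads and 520 liver reads, 2.48-fold higher in the liver pool (2.09 to 2.95), and was called under TMM and size-factor scaling but not with library totals. By contrast, nid2 had 867 and 79 reads, 12.5-fold higher in the embryo pool (9.94 to 15.98), and nid1b had 125 and 5 reads, 28.5-fold higher (11.9 to 89.4). The call of nid2 was lost under TMM and size-factor scaling. As a result nid1a made up 15.6% (13.6 to 17.9) of nidogen reads in the embryo pool against 86.1% (83.1 to 88.8) in the liver pool. Reads of nid1a were largely shared with other positions, with 49 unique embryo reads and 141 unique liver reads, and the ratio of unique reads was 2.68 (1.92 to 3.79). From unique reads its shares of the nidogens were 4.80% and 65.6%. The files list no exon for nid1b.

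Perlecan, the large heparan sulfate proteoglycan of the basement membrane encoded by hspg2, had 1249 embryo reads and 306 liver reads. It was 4.66-fold higher in the embryo pool (4.11 to 5.30), near the limit of the call, which was lost with unique gene reads and under TMM scaling.

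**Figure D2:**
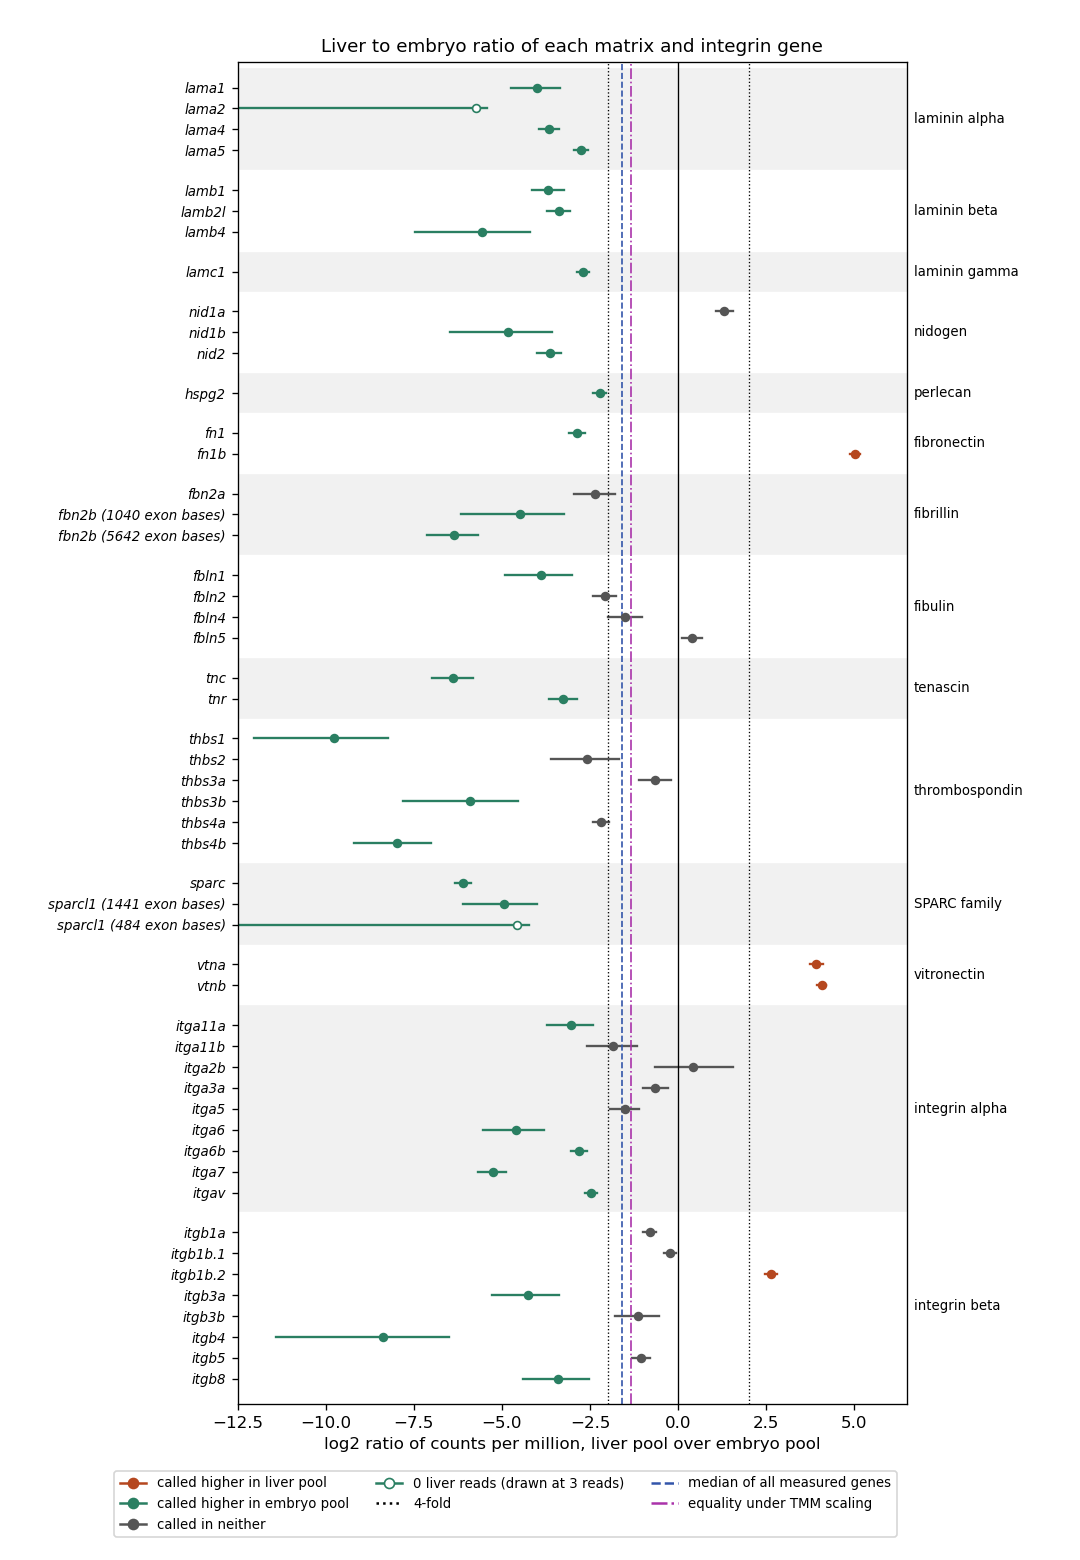
Ratio of liver over embryo CPM (log2) for each of the 51 genes, with 1 library per pool and bars for the exact 95% interval. Lines mark equality, 4-fold, the all-gene median of -1.60 and the point that TMM scaling would set to equality. The 4 genes with a liver call (orange) stand to the right of the 4-fold line, and the 31 called higher in the embryo pool (green) to the left.

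The fibronectin genes were inverted between the pools. Fibronectin is a fibril-forming glycoprotein that integrins bind through an arginine-glycine-aspartate motif. The gene fn1b had 408 embryo reads and 15054 liver reads, 32.3-fold higher in the liver pool (29.3 to 35.8). Its paralog fn1, named fn1a in current annotation, had 1086 embryo reads and 170 liver reads, 7.29-fold higher in the embryo pool (6.20 to 8.62), a call lost under TMM scaling. Of the fibronectin reads 27.3% (25.1 to 29.6) were those of fn1b in the embryo pool against 98.9% (98.7 to 99.0) in the liver pool.

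Reads with several positions entered the fn1b values. Unique reads of fn1b were 120 of 408 in the embryo pool and 3337 of 15054 in the liver pool, whereas 99.4% of the fn1 reads were unique in each pool. The fn1b reads with several positions numbered 288 and 11717. In both pools 1 other feature had such reads within 25% of these numbers. Whether they are the same reads was not tested, and that feature is not in the fibronectin sums. From unique reads alone fn1b was 25.9-fold higher in the liver pool (21.6 to 31.3), so its call did not rest on the shared reads. In unique reads fn1b had 120 beside 1079 for fn1 in the embryo pool, and 95.2% of the fibronectin reads in the liver pool. The sum over both fibronectin genes did move, from a liver to embryo ratio of 8.93 to 2.72. Nearly all fn1b reads lay in exons, at 97.5% in the embryo pool against 98.9% in the liver pool. The region of fn1b overlaps that of slit2 in the files.

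Vitronectin, a plasma and matrix protein that binds integrins through the same motif, was higher in the liver pool for both paralogs. The gene vtnb had 558 embryo reads and 10740 liver reads, 16.9-fold higher (15.5 to 18.4). The gene vtna had 265 and 4587 reads, 15.2-fold higher (13.4 to 17.2). The intervals of these ratios overlap, and the paralogs kept close to the same proportion, with vtna at 32.2% (29.0 to 35.5) of vitronectin reads in the embryo pool against 29.9% (29.2 to 30.7) in the liver pool. At least 92.1% of the reads were unique for either gene in either pool, and both calls held under each alternative run.

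Fibrillins form the microfibrils that hold elastic fibres. The files list fbn2b, a gene required for the embryonic fin fold in zebrafish, as a pair of features on one reference sequence. The feature with 5642 exon bases had 1293 embryo reads and 18 liver reads, 82.0-fold higher in the embryo pool (51.7 to 139), or 170.2-fold from exon reads (86.1 to 395). The feature with 1040 exon bases had 99 and 5 reads, 22.6-fold higher (9.36 to 71.1), a call lost under TMM and size-factor scaling. The paralog fbn2a had 139 and 31 reads and was called in neither direction, at 5.12-fold (3.45 to 7.82). However, none of the 31 liver reads of fbn2a lay in an annotated exon, and exon reads alone gave a call for the embryo pool.

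The fibulins, matrix glycoproteins of basement membranes and elastic fibres, had 1 called gene among 4, beside 34.3% of all genes called in either direction. Their sum was 834 embryo reads and 442 liver reads, 2.15-fold higher in the embryo pool (1.92 to 2.42), a direction that turned under TMM scaling to a liver to embryo ratio of 1.19. The gene fbln5, which binds elastin and integrins, had 184 and 276 reads and a liver to embryo ratio of 1.31 (1.09 to 1.59), or 1.09 from exon reads. Its share went from 22.1% of the 834 fibulin reads in the embryo pool to 62.4% of the 442 in the liver pool. The most abundant fibulin gene of the embryo pool, fbln2, had 373 and 101 reads at 4.21-fold (3.37 to 5.30), and fbln4 had 134 and 54 reads at 2.83-fold (2.05 to 3.96), neither of them called. The called gene was fbln1, with 143 and 11 reads, 14.8-fold higher in the embryo pool (8.05 to 30.4). Under TMM and size-factor scaling no fibulin gene was called.

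Matricellular proteins, which regulate adhesion without forming the main fibres, included the widest gap of the 51 genes in total gene reads, that of thbs1. The thrombospondin thbs1 had 2294 embryo reads and 3 liver reads, 873-fold higher in the embryo pool (298 to 4235). The thrombospondin thbs4b, known in zebrafish for muscle attachment sites, had 1778 and 8 reads, 254-fold higher (128 to 588). The paralog thbs3b had 211 and 4 reads, 60.2-fold higher (23.2 to 223). From exon reads, with 2 in the liver pool for each, thbs4b was 1038-fold (287 to 8584) and thbs3b 119-fold higher (32.6 to 994). Of the 6 thrombospondin genes taken by name these 3 were called higher in the embryo pool, beside 30.9% of all genes. These 3 calls held under every alternative run, TMM scaling included, where 15.8% of all genes were so called.

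The other 3 thrombospondin genes were called in neither direction with total gene reads. They were thbs3a with 100 embryo reads and 73 liver reads, thbs2 with 63 and 12, and thbs4a with 834 and 210. Exons held 79.5% of the liver reads of thbs3a, but none of the 210 liver reads of thbs4a and none of the 12 of thbs2. Exon reads alone gave calls for the embryo pool for thbs2 and thbs4a. With 56 embryo exon reads against 0, thbs2 was at least 22.4-fold higher. From exon reads thbs4a was at least 44.4-fold above the liver level, with 111 embryo exon reads against 0. Its 4.53-fold value (3.89 to 5.30) from total gene reads therefore compared reads that lay mostly outside the annotated exons, which held 13.3% of its embryo reads. The region of thbs4a overlaps that of serinc5 in the files.

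SPARC, a collagen-binding protein of bone, skin and basement membranes, was the most abundant of the 51 genes in the embryo pool. It had 10147 embryo reads and 169 liver reads, 68.5-fold higher in the embryo pool (58.9 to 80.2). The SPARC-like gene sparcl1 appeared as a pair of features, 1 with 244 and 9 reads, 30.9-fold higher (16.03 to 68.5), and 1 with 62 and 0 reads, at least 23.6-fold higher, with an exact lower limit of 18.6. From exon reads the first was 121-fold higher (33.1 to 1008), on 2 liver reads. Among the tenascins, tnc, found at tendons and in the developing nervous system, had 1895 and 26 reads, 83.2-fold higher (56.6 to 128), or 152-fold from exon reads (88.8 to 286). The neural tenascin tnr had 515 and 61 reads, 9.63-fold higher (7.38 to 12.8), a call lost under TMM scaling. All 5 of these features were called higher in the embryo pool with library totals, beside 30.9% of all genes.

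**Figure D3:**
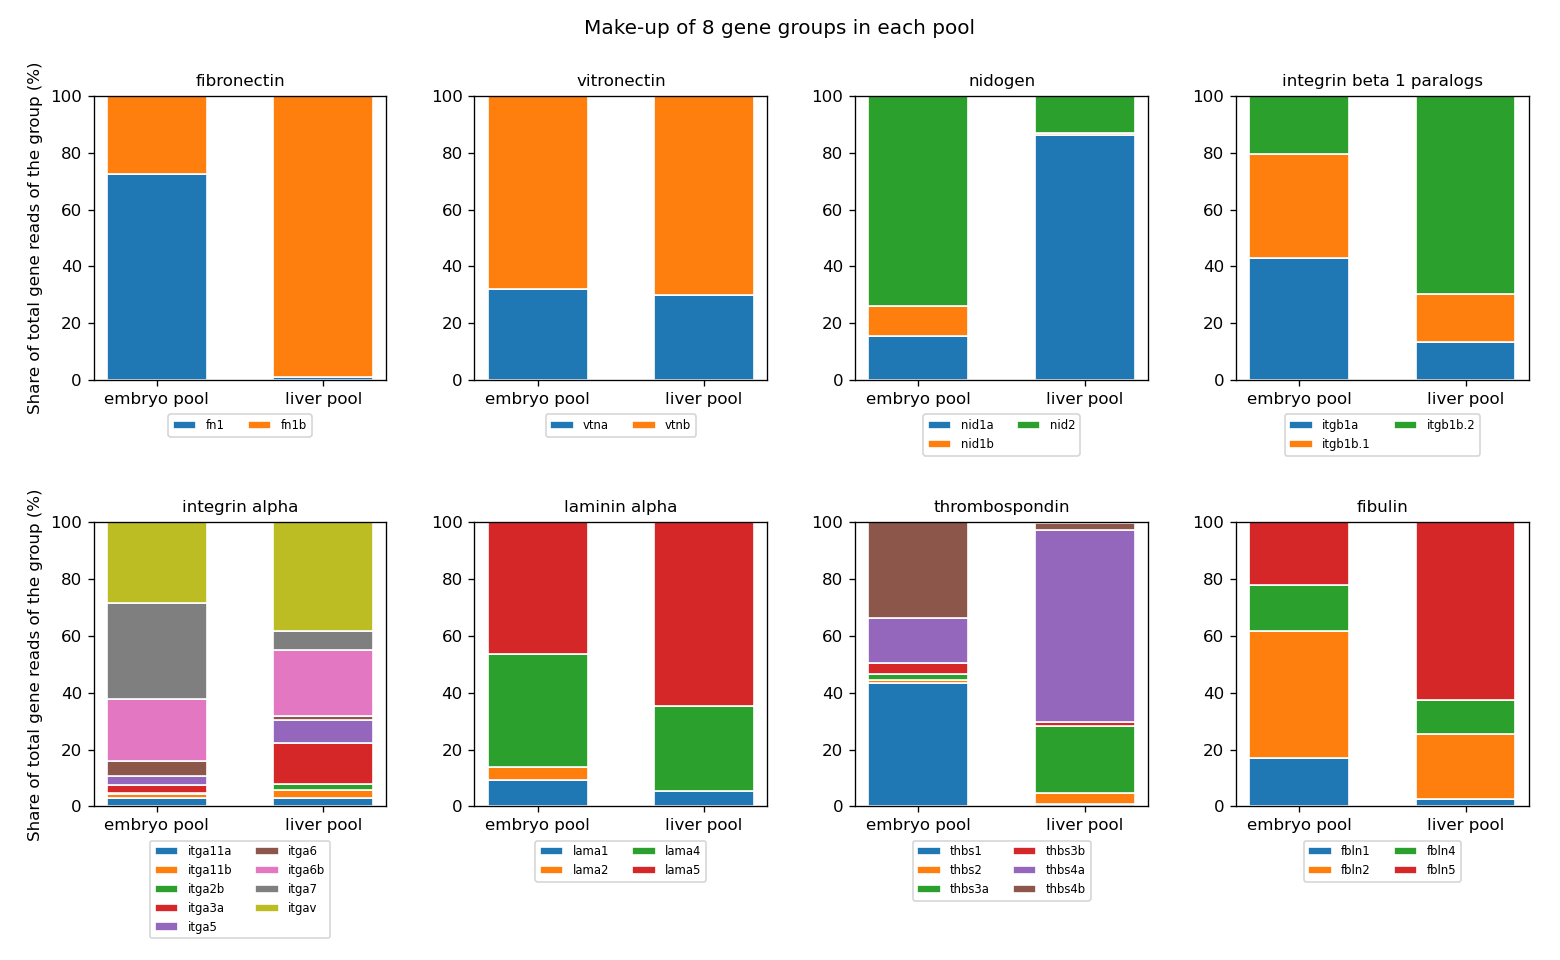
Share of the total gene reads of each of 8 groups (percent) that each gene took in the embryo and liver pools, with 1 library per bar. The fibronectin bar changes from 27.3% to 98.9% fn1b and the integrin beta 1 bar from 20.5% to 69.6% itgb1b.2, while the vitronectin bars are close to alike.

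The integrin alpha chain genes taken by name were lower in the liver pool as a sum. They had 5544 embryo reads and 844 liver reads, 7.50-fold higher in the embryo pool (6.97 to 8.07). Of the 9 genes 5 were called higher in the embryo pool, beside 30.9% of all genes, none in the liver pool and 4 in neither. Under TMM scaling 2 were called higher in the embryo pool, beside 15.8%, and with size factors 2, beside 15.5%. The chains that bind laminin ranged from no call to the widest gap of the alpha chains in total gene reads. The main laminin receptor chain of skeletal muscle, itga7, had 1886 and 56 reads, 38.4-fold higher in the embryo pool (29.5 to 51.1). The epithelial chain gene itga6 had 279 and 13 reads, 24.5-fold higher (14.1 to 46.6), and its paralog itga6b had 1212 and 197 reads, 7.02-fold higher (6.03 to 8.20), a call lost under TMM and size-factor scaling.

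Their relative itga3a had 163 embryo reads and 119 liver reads, a liver to embryo ratio of 0.640 (0.501 to 0.815) that became 1.63 under TMM scaling. Together these 4 laminin-binding chains made up 63.9% (62.6 to 65.1) of the reads of the 9 alpha genes in the embryo pool. In the liver pool they made up 45.6% (42.2 to 49.0). Alpha chain genes listed under other names, itga3b among them, were left out of these sums. In exon reads these shares were 43.1% and 20.8%. Read placement limits them: annotated exons held 13.8% of the embryo reads and 10.7% of the liver reads of itga7, and 4 of the 197 liver reads of itga6b. From exon reads the liver to embryo ratio of itga6b was 0.00427, a 234-fold gap. That gap was the widest among the alpha chains, with itga7 52.0-fold higher in the embryo pool (23.6 to 143). The region of itga7 overlaps that of LOC100006857, and 60.8% of its embryo reads were unique. Of the 13 liver reads of itga6, 2 lay in exons, and its exon reads gave a 130.3-fold higher embryo level (35.6 to 1083).

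Of the alpha chains itgav and itga5, which bind the fibronectin and vitronectin motif, 1 was called. The gene itgav had 1569 embryo reads and 322 liver reads, 5.56-fold higher in the embryo pool (4.93 to 6.29), a call lost under TMM scaling. The fibronectin receptor chain itga5 had 173 and 69 reads and was called in neither direction, at 2.86-fold (2.15 to 3.84). Among the 9 integrin alpha genes taken by name, itgav had the largest share of liver reads, 38.2% (34.9 to 41.5). In the embryo pool its share was 28.3% (27.1 to 29.5). With exon reads alone these shares were 61.3% and 46.3%. Alpha chain genes listed under other names are not in these sums. Among them were itga1 with 332 embryo and 138 liver reads and itgae.1 with 68 and 114. Counting them would lower the share of itgav in both pools, and more so in the liver pool.

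The remaining alpha chains were rare. The collagen-binding chain itga11a had 173 and 24 reads, 8.23-fold higher in the embryo pool (5.35 to 13.2), a call lost under TMM and size-factor scaling. Its paralog itga11b had 76 and 24 reads and was called in neither direction, with none of its liver reads in exons. Exon reads alone, 38 against 0, gave a call for the embryo pool at 15.2-fold or more. The thrombocyte chain itga2b had 13 embryo reads and 20 liver reads, a ratio of 1.35 whose interval of 0.638 to 2.95 includes equality. With library totals a difference in itga2b was not detectable at this depth. Under TMM scaling the ratio was 3.44 (1.63 to 7.53), above equality but not called.

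The integrin beta chain genes taken by name had nearly equal sums, with 2939 embryo reads and 3656 liver reads. The liver to embryo ratio was 1.09 (1.04 to 1.14), or 2.78 under TMM scaling. That balance hid opposite members. The beta 1 chain, the partner of most alpha chains, has 3 genes here. The gene itgb1b.2 had 332 embryo reads and 2357 liver reads, 6.22-fold higher in the liver pool (5.54 to 6.999).

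The other beta 1 genes differed little. For itgb1b.1 there were 593 and 579 reads, a liver to embryo ratio of 0.855 (0.762 to 0.961), and for itgb1a 695 and 452 reads, a ratio of 0.570 (0.505 to 0.642), with both ratios above 1 under TMM scaling. Among beta 1 reads itgb1b.2 was the least abundant of the 3 in the embryo pool, at 20.5% (18.6 to 22.5), and the most abundant in the liver pool, at 69.6% (68.0 to 71.1). Unique reads gave the liver share as 69.8% and exon length-scaled values as 71.2%, and 91.3% of the liver reads of itgb1b.2 were unique. Summed over the 3 genes, beta 1 was 1.83-fold higher in the liver pool (1.73 to 1.94), and 4.68-fold under TMM scaling.

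Of the 8 beta chain genes 3 were called higher in the embryo pool, beside 30.9% of all genes, and 1 in the liver pool, beside 3.35%. The embryo calls fell to 2 under TMM scaling, beside 15.8%, and to 1 with size factors, beside 15.5%. All 3 were chains other than beta 1. The hemidesmosome chain itgb4 had 581 embryo reads and 2 liver reads, 331-fold higher in the embryo pool (91.4 to 2744), although 69 of those 581 reads were unique. With no unique liver read of itgb4, unique reads gave at least 24.7-fold. The chain itgb3a had 183 and 11 reads, 19.0-fold higher (10.4 to 38.7), and itgb8 had 111 and 12 reads, 10.6-fold higher (5.81 to 21.0). The calls of itgb3a and itgb8 were lost with size factors, and that of itgb8 with TMM scaling too. Only 1 of the 12 liver reads of itgb8 lay in exons, and exon reads gave an 87.7-fold difference (15.2 to 3510). The other beta chains were not called. The gene itgb5 had 378 and 209 reads and itgb3b 66 and 34, at liver to embryo ratios of 0.484 (0.407 to 0.575) and 0.451 (0.289 to 0.693) that turned above 1 under TMM scaling.

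**Figure D4:**
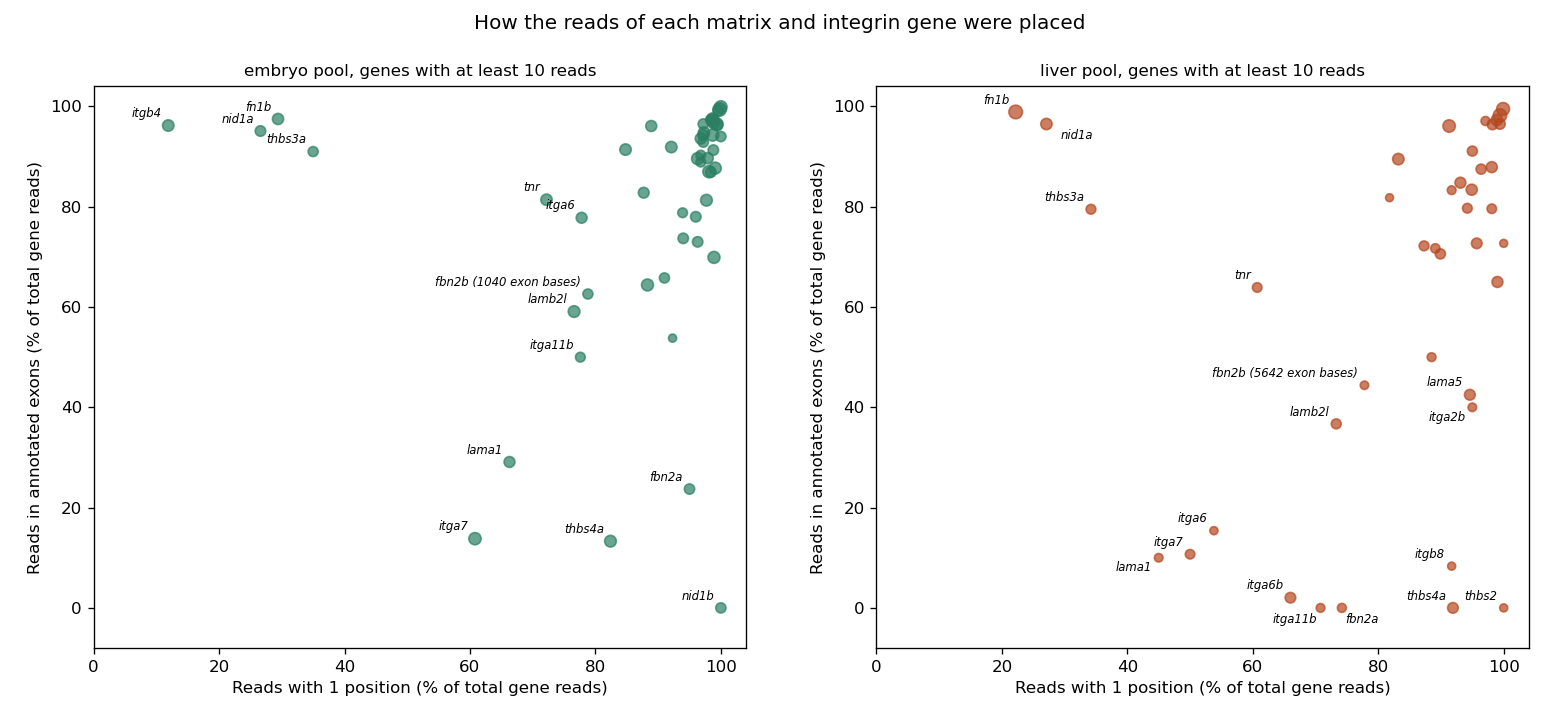
Share of reads with 1 position (horizontal axis, percent of total gene reads) and share in annotated exons (vertical axis, percent) for genes with at least 10 reads in the embryo pool (left) and the liver pool (right), with larger points for more reads. Genes under 80% unique or under 50% in exons are named, and fn1b lies at 22.2% unique and 98.9% in exons in the liver pool.

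Read placement differed between the pools. Among members with at least 10 liver reads and a listed exon length, 13 of 41 (31.7%) had under 50% of their liver reads in exons, beside 22.3% of all such features. In the embryo pool these were 4 of 50 (8.0%) beside 13.1%. Total exon reads raised the number of the 51 called higher in the embryo pool from 31 to 34 and left 4 in the liver pool, and unique gene reads gave 30 and 4. Over all genes the embryo calls went from 6730 to 7300 with total exon reads and to 6224 with unique gene reads. The liver calls over all genes went from 728 to 677 and 708. The 4 liver-enriched genes had at least 96.1% of their liver reads in exons.

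The 5 features taken by name alone are neither integrin chains nor members of the matrix families above. The integrin-like secreted protein gene itgbl1 had 302 embryo reads and 3 liver reads, 115-fold higher in the embryo pool (38.9 to 560.2). The gene tnrc4, which encodes an RNA-binding protein of the CELF family, had 1489 and 103 reads, 16.5-fold higher (13.5 to 20.4). Called in neither direction were itgb1bp1, whose product binds the beta 1 tail, with 253 and 148 reads, the microRNA silencing gene tnrc6b with 870 and 348, and tnrc5 with 210 and 164.

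A list of adhesion machinery and further matrix genes gave a background for the pathway. Of 82 names 54 were found and measured. Of these 29 (53.7%) were called higher in the embryo pool, beside 30.9% of all genes. In the liver pool 1 was called, beside 3.35%, and 24 were called in neither. Most of the embryo calls fell on the matrix genes of the list. Most of its adhesion machinery genes were not called, which holds for all measured genes too, of which 34.3% were called in either direction. The share of the whole list therefore does not describe the adhesion machinery alone. The median log2 ratio of the 54 stood at -2.55. Under TMM scaling 18 were called higher in the embryo pool, beside 15.8% of all genes. The most abundant were bcar1 (zgc:175192 in the files), a docking protein of focal adhesions, with 8818 embryo reads and 699 liver reads, the periostin gene postn with 8067 and 93, and the cartilage matrilin gene matn1 with 5474 and 2. Exons held 550 of the embryo reads of bcar1 and 563 of its liver reads, a liver to embryo ratio of 0.852 (0.757 to 0.960), so its call and its rank rested on reads outside the exons.

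Genes that link integrins to actin included some with small differences, here picked after their values were seen. The talin gene tln1 had 1647 and 883 reads and the integrin-linked kinase gene ilk 740 and 523, with liver to embryo ratios of 0.470 and 0.619 that rose above 1 under TMM scaling. Others of this role were called higher in the embryo pool. Among them were the talin gene tln2 at 72.7-fold (38.0 to 160) and the vinculin gene vcl at 37.8-fold (20.9 to 76.3). The gene called higher in the liver pool was the blood cell kindlin fermt3b (zgc:64101 in the files), with 66 and 564 reads, 7.49-fold higher (5.79 to 9.82). In exons it had 30 embryo reads and 7 liver reads, a liver to embryo ratio of 0.194 (0.0720 to 0.451), so its direction turned.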

How the data were processed

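RNA sequencing was done on 2 pooled libraries, 1 per source. The deposited files give, per the file headers, whole-number read counts for each gene as unique reads (1 position) and total reads (several positions too), and the same for exons and junctions. The authors also deposited RPKM, which equalled total exon reads by exon length and library total to within 0.0878 reads, and median coverage, a signal value not used here. The aligner, annotation and build used by the authors were not given in the sources used here. Neither coordinates nor sequences are printed.

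Total gene reads were divided by the library total. Ratios carry exact 95% Clopper-Pearson intervals (scipy 1.17.1). TMM factors came from edgeR 4.0.16 and size factors from DESeq2 1.42.0. The call rule was tested on simulated counts that held counting error only, which cannot show how it fares with variation between libraries or with the choice of scaling. Alternatives were unique and exon reads, other scaling, folds of 2 and 8 and count minima of 0 and 50. Genes named were the 3 most abundant of each family, those called higher in the liver pool, those at 0 in 1 pool with at least 100 reads in the other and the called member farthest against its family median, with the 3 most abundant and up to 5 liver-called genes of the adhesion list. Further members were added after their values were seen. The exon figures of list genes and the alternatives with unique exon reads were likewise added later. The members and lists were chosen with earlier results of these data known. Names of list genes were matched to the files first and then through RefSeq symbols of assembly GRCz12tu, by which 14 of the 54 were found.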

Additional observations from a re-analysis of the deposited data

How the results depend on the processing

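Members called higher in the liver pool numbered between 3, at 8-fold, and 5 under the alternatives run, against 4. Members called higher in the embryo pool fell from 33 to 19 with TMM factors and 16 with size factors. Over all genes the liver calls were 728, then 1754 with TMM, 1781 with size factors, 1404 at 2-fold and 419 at 8-fold, and the embryo calls 6730, then 3427, 3362, 11390 and 4089. The adhesion list had 18 embryo calls with TMM and 18 with size factors, and 0 liver calls with exon reads, alternatives chosen after seeing the data. Summed liver to embryo ratios with TMM and size factors were 0.270 and 0.275 for laminin alpha, 0.394 and 0.402 for laminin gamma, 0.548 and 0.560 for perlecan and 0.341 and 0.348 for integrin alpha, all no longer called, as was laminin beta at 0.212 with size factors. They were 1.15 and 1.17 for nidogens, 1.19 and 1.21 for fibulins and 2.78 and 2.84 for integrin beta, where the direction turned except for integrin beta. Unique gene reads gave 0.196 for nidogens (called), 0.228 for perlecan, 2.72 for fibronectin and 1.37 for integrin beta, exon reads 0.529 for nidogens and 0.397 for fibulins, and unique exon reads, added after seeing the data, 0.251 for nidogens, 2.71 for fibronectin and 1.35 for integrin beta. Scaling shifts act on all genes alike. The cause of the other moves was not tested. No paired analysis was possible because each source had 1 library, and for the same reason no library could be left out. Depth limits genes with few liver reads: 10 of the 51 had under 10.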

Other observations

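Further members of these families stand in the files under other names and were found through RefSeq symbols, a search added after seeing the data. Of the 14 found, all measured, 5 (35.7%) were called higher in the embryo pool, near the 30.9% of all genes, 0 in the liver pool and 9 in neither by the same interval rule. Under TMM scaling, tried after seeing the data, 1 was called higher in the embryo pool (thbs2b) and 1 in the liver pool (fbn1). The laminin beta gene lamb1b had 433 embryo reads and 46 liver reads, 10.7-fold higher (7.92 to 14.9) in the embryo pool, beside 518 and 46 reads for lamb1. The thrombospondin gene thbs1a had 490 and 137 reads, 4.08-fold higher (3.37 to 4.97), and was not called. Its relative thbs2b had 230 and 4 reads, 65.6-fold higher (25.3 to 243), and was called. Also called were fbln7, itga10 and a second itgb4 feature, in which 6 of 89 embryo reads were unique. The fibrillin gene fbn1 went the other way from both fbn2b features, with 148 embryo reads and 329 liver reads, a liver to embryo ratio of 1.95 (1.60 to 2.38) that was called only under TMM scaling.

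Integrin chains of leukocytes were among these genes and were called in neither direction. The common leukocyte beta chain itgb2 had 95 embryo reads and 47 liver reads, a liver to embryo ratio of 0.434 (0.299 to 0.621), and itga4 had 76 and 23 reads, a ratio of 0.265 (0.159 to 0.428). The mucosal chains had ratios above 1, with 68 and 114 reads for itgae.1, at 1.47 (1.08 to 2.01), and 23 and 36 for itgb7, at 1.37 (0.791 to 2.42). With library totals the interval of itgb7 includes equality. Under TMM scaling the ratios were 1.11 for itgb2, 0.677 for itga4, 3.75 for itgae.1 and 3.5 for itgb7, none of them called.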
